A study of Mus musculus with 16 samples.

Results

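Polycomb, trithorax and H3K9 methylation genes were followed in mouse embryonic stem (ES) cells that lack enzymes for heparan sulfate N-sulfation, or in which sulfation or FGF receptors were blocked with a chemical. The 37 genes were chosen by name, and every array probe annotated with one of their symbols was taken. Probes were found for 33 of the 37 genes (the array names 16593 genes), with 53 of the 25697 probes on the array. Of these, 46 probes (32 genes) passed the detection filter, as did 13377 probes in all, and were tested. Rbbp4, Rybp, Kdm5a and Kmt2a had no probe here. The single Cbx6 probe was detected on none of the 16 arrays. The other 6 untested probes were additional probes of Ezh1, Ezh2, Kdm2b, Ash2l, Rbbp5 and Ehmt1, each detected on at most 1 array.

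The groups were untreated Ndst1/2-/- ES cells, which lack a pair of enzymes that place N-sulfate groups on heparan sulfate, wild-type ES cells given 20 mM sodium chlorate (a sulfation inhibitor) for 24 h, wild-type ES cells given 5 µM SU5402 (an FGF receptor inhibitor) for 24 h, and untreated wild-type CCE ES cells. All 4 groups grew on gelatin in medium with serum and LIF, and each had 3 cultures, so 12 cultures in all. The labels give a single name for the mutant cells and do not say how many clones it stands for, so a difference shown by mutant cells cannot be told apart from a difference between these particular lines. Ndst1 and Ndst2 had 0 probes by symbol, so the disrupted genes were not analysed here.

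Polycomb proteins keep developmental genes silent and work in separate complexes. Polycomb repressive complex 2 (PRC2) methylates lysine 27 of histone H3, through Ezh2 or Ezh1 with Eed and Suz12. Polycomb repressive complex 1 (PRC1) is built on Ring1 or Rnf2 with a PCGF protein, and ubiquitinates histone H2A. Trithorax-type complexes methylate lysine 4 of histone H3 and oppose Polycomb silencing, and the demethylases Kdm6a and Kdm6b remove the PRC2 mark. In ES cells Polycomb holds lineage genes in a poised state, while Setdb1 with Trim28, and Ehmt1 with Ehmt2, methylate lysine 9 of histone H3 to silence repeats and germline genes.

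The ES cell identity given in the labels was matched by marker genes, since all 8 ES cell markers examined (among them Pou5f1, Nanog and Zfp42) were detected on all arrays of every group. Arrays detected 12022 to 12821 probes each, and their number limits the precision. Of 20 markers of other cell types, 4 were detected on all arrays in Ndst1/2-/- cells, 7 with chlorate, 7 with SU5402 and 8 in untreated cells. Their summed intensity was 1339.6 to 1430.6 in Ndst1/2-/- cultures, 1212.3 to 1300.1 with chlorate, 1247.4 to 1273.6 with SU5402 and 1316 to 1383.3 in untreated cultures. Most of it came from fibroblast markers (958.5 to 1047.5 in mutant, 840.1 to 900.7 in untreated cultures), of which Vim was the brightest. Sums in mutant and untreated cultures were 157 to 166.3 and 170.9 to 182.5 for endoderm, and 88.6 to 98.9 and 135.4 to 144 for trophoblast. They were 93.6 to 95.5 and 114.6 to 119.9 for neural markers, and overlapped for mesoderm. The trophoblast and endoderm regulators Cdx2 and Gata6, and Thy1 and Krt7, were detected on none of the mutant arrays and on all 4 arrays of each wild-type group. The endoderm marker Sox7 went the other way, since its probe ILMN_2653251 was detected on all 4 mutant arrays and on no wild-type array, and ILMN_2889482 averaged 6.04 (log2 intensity) in mutant, 5.06 in chlorate-treated, 5.06 in SU5402-treated and 5.31 in untreated cells. The fibroblast marker Vim averaged 9.72 in mutant, 9.25 in chlorate-treated, 9.23 in SU5402-treated and 9.27 in untreated cells. Sox17, Foxa2, Elf5, Hand1, Sox1, Pax6, Mixl1 and Mesp1 were detected on no array. The part of rarer cell types in the results was not tested, and fewer cells of a type cannot be told apart from less RNA per cell. Both arrays of culture 3 differed by about as much (median 0.0973 to 0.1065 log2 units) as cultures 1 and 2 of a group did (0.1024 to 0.1172). The p-values may thus measure mostly array-to-array spread. By mean intensity the arrays fell into a brighter and a dimmer set, each with 2 arrays of every group, and all cultures 1 lay in the brighter set and all cultures 2 in the dimmer one. A fit of all 16 arrays took the array set as a block and culture as a random block (correlation 0.158). Where it changed a call against untreated cells, its p is given below as array-set adjusted p.

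The promoters of the 5 genes whose every tested probe was called in a single direction in all 3 comparisons with untreated cells are shown, because each of these genes was called in every comparison with untreated cells. Each is 300 bases of RefSeq sequence, from 250 before to 50 after the gene's start, in the gene's own direction, on build GRCm38.p6. Capitals mark CpG dinucleotides.
Phc1 (lower), chr6:122340178-122340477, minus strand: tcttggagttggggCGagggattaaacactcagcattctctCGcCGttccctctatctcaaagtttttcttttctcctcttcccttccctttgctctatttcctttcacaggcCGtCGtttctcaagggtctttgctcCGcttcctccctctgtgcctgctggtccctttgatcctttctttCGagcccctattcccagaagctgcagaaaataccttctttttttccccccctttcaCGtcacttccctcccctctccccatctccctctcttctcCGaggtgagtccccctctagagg
Pcgf6 (lower), chr19:47050857-47051156, minus strand: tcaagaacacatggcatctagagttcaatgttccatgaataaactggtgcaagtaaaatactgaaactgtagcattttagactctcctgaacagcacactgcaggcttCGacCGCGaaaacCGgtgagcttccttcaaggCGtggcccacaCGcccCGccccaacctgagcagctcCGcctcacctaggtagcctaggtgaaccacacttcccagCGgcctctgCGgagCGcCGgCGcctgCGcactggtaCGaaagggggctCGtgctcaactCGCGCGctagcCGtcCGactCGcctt
Phf19 (higher), chr2:34913927-34914226, minus strand: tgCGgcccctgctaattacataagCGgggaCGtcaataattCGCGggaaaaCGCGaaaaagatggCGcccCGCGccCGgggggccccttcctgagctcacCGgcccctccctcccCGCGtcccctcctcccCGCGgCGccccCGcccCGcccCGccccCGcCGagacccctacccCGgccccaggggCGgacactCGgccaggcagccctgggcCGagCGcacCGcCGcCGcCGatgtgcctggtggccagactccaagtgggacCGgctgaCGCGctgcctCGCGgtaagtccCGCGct
Kdm6a (higher), chrX:18162325-18162624, plus strand: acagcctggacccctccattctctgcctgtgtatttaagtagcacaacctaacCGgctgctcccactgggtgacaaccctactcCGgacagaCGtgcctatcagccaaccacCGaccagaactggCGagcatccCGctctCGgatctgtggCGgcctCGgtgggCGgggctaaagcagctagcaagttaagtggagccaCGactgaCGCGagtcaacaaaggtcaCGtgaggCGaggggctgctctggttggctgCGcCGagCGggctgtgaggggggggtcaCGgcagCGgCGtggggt
Kdm5b (higher), chr1:134559928-134560227, plus strand: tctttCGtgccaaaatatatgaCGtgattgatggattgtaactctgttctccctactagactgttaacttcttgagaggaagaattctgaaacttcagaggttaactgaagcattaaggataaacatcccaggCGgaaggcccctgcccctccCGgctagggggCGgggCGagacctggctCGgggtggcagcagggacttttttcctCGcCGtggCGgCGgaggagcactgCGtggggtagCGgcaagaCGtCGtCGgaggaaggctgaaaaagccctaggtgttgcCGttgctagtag
The 5 promoters held 9 (Phc1), 22 (Pcgf6), 38 (Phf19), 21 (Kdm6a) and 17 (Kdm5b) CpG dinucleotides. Promoters were found for 31 of the 37 genes, 42 promoters in all, and not for Pcgf1, Cbx2, Rybp, Kdm6b, Kdm5a and Ash2l. Their median CpG count was 28 against 7 over all 32851 mouse promoters in the table, and their median GC content was 65.17% against 52.67%. The E-box letters CACGTG, which read the same on both strands, stood in 9 of the 42 promoters (21.4%) and in 7.15% of all promoters. Of the 5 promoters shown only that of Kdm6a held them, beginning 27 bases before the start. The ETS-type letters CCGGAAG, searched on both strands, stood in 2 of the 42 (4.76%, Phc2 and Setdb1) and in 8.86% of all. These letters were chosen with the expression results known, several genes have overlapping promoters, and the matches are descriptions only.

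Many of these genes differed between Ndst1/2-/- and untreated wild-type cells. By limma with adjustment over all tested probes, 22 of the 46 probes were higher in mutant cells, where 30.4% of all tested probes were, and 13 were lower, where 32.2% were. Counting each gene by its brightest probe, 17 of 32 genes were higher and 8 lower. No such share was taken over all genes, so these gene counts have no like share beside them. The median log2 fold change was 0.21 over the 46 probes and 0.00 over all probes. Changes were mostly modest, since 3 of the 46 probes changed at least 2-fold, where 9.01% of all tested probes did. These were Kdm6b ILMN_3023230, Phc1 ILMN_3064382 and Phc1 ILMN_3142248.

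Chlorate and SU5402 changed fewer of them. With chlorate 5 probes were higher (14.2% of all tested probes were) and 8 lower (14.2% of all), with a median log2 fold change of -0.00 against -0.01 over all probes. With SU5402 6 were higher (11.9% of all) and 7 lower (11.6% of all), with a median of -0.03 against -0.01 over all probes. These shares lie near those of all tested probes, and neither treatment changed any of the 46 probes 2-fold. An F-test across all 4 groups called 36 of the 46 probes, against 69% of all. All 3 comparisons use the same untreated cultures, so values are set side by side for each gene and their likeness is not tested. The SU5402 count fell to 8 without untreated culture 2 and to 8 without SU5402 culture 2.

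**Figure D1:**
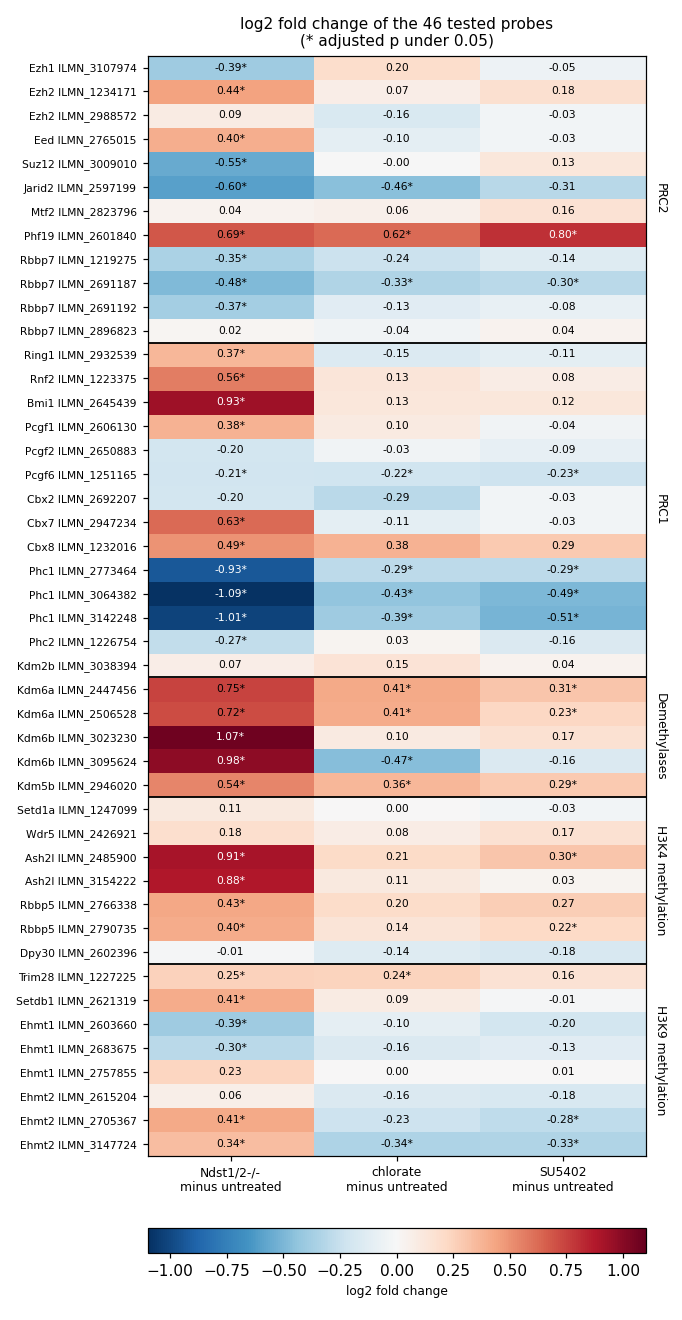
Log2 fold change against untreated wild-type cells of the 46 tested probes (rows, grouped by role) in Ndst1/2-/-, chlorate-treated and SU5402-treated cells (columns), with a star where the adjusted p was under 0.05. The strongest colours are in the mutant column, from -1.09 (Phc1) to 1.07 (Kdm6b), and the treatment columns run from -0.51 to 0.80.

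Among the PRC2 genes, the subunits moved in different directions in Ndst1/2-/- cells: the methyltransferase Ezh2 and its partner Eed were higher, and Suz12 and Jarid2 were lower. Of 12 PRC2 probes 3 were higher and 6 lower in mutant cells, 1 higher and 2 lower with chlorate, and 1 higher and 1 lower with SU5402. The shares over all tested probes, given above, were 30.4% and 32.2% in mutant cells, 14.2% in each direction with chlorate, and 11.9% and 11.6% with SU5402. Levels below are normalized log2 intensities of a single probe, which cannot be set against those of another probe.

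Ezh2, the catalytic subunit, measured by ILMN_1234171, was at 10.47, 10.35 and 10.44 in Ndst1/2-/- cultures, 10.08, 10.08 and 9.99 with chlorate, 10.22, 10.14 and 10.13 with SU5402, and 10.20, 9.80 and 9.94 in untreated cultures. All mutant cultures lay above all wild-type cultures. The log2 fold change was 0.44 ± 0.09 (SE) in mutant cells (adjusted p = 0.00072), 0.07 with chlorate (adjusted p = 0.58) and 0.18 with SU5402 (adjusted p = 0.16). Without untreated culture 1 the SU5402 value was 0.29 (adjusted p = 0.013), and its array-set adjusted p was 0.042. A dimmer Ezh2 probe, ILMN_2988572, was at 6.10, 6.25 and 6.37 in mutant cultures, 5.96, 6.03 and 5.95 with chlorate, 6.11, 6.25 and 5.9995 with SU5402, and 6.12, 6.15 and 6.17 in untreated cultures. This probe was not called in any of the 3 comparisons (0.09 in mutant cells, adjusted p = 0.31), so the Ezh2 probes differ in their call.

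Eed, which binds the methylated histone tail, was at 11.08, 11.25 and 11.25 in Ndst1/2-/- cultures, 10.67, 10.71 and 10.69 with chlorate, 10.71, 10.79 and 10.79 with SU5402, and 10.72, 10.90 and 10.76 in untreated cultures. The mutant values stood apart from all others (0.40 ± 0.07, adjusted p = 0.00016), while the treatments gave -0.10 and -0.03. Suz12, a core subunit needed for the stability of the complex, was at 11.92, 11.86 and 11.97 in mutant cultures, 12.53, 12.45 and 12.42 with chlorate, 12.60, 12.60 and 12.59 with SU5402, and 12.53, 12.40 and 12.47 in untreated cultures. It fell by 0.55 ± 0.06 in mutant cells (adjusted p = 2.5e-06), with no overlap, and had a log2 fold change of 0.13 with SU5402 (adjusted p = 0.13).

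Jarid2, which helps recruit PRC2 to its target genes, was at 6.31, 6.44 and 6.88 in Ndst1/2-/- cultures, 6.60, 6.89 and 6.56 with chlorate, 6.60, 7.09 and 6.81 with SU5402, and 6.98, 7.24 and 7.21 in untreated cultures. Mutant and chlorate values all lay below the untreated ones, and SU5402 values overlapped them. The log2 fold changes were -0.60 ± 0.15 in mutant cells (adjusted p = 0.0046), -0.46 with chlorate (adjusted p = 0.043) and -0.31 with SU5402 (adjusted p = 0.18). The chlorate call did not hold without chlorate culture 1 (adjusted p = 0.11) or 3 (0.13), untreated culture 2 (0.12) or 3 (0.11), mutant culture 2 (0.051) or SU5402 culture 3 (0.055).

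Ezh1, the alternative catalytic subunit, was at 5.35, 4.95 and 4.90 in Ndst1/2-/- cultures, 5.46, 5.76 and 5.74 with chlorate, 5.65, 5.13 and 5.42 with SU5402, and 5.60, 5.37 and 5.39 in untreated cultures. It was near the detection limit in mutant cells, on 1 of 4 arrays, and was detected on all 4 arrays of each other group. It was lower in mutant cells (-0.39 ± 0.14, adjusted p = 0.031), a call that did not hold without mutant culture 2 (adjusted p = 0.10), mutant culture 3 (0.12) or untreated culture 1 (0.11).

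Phf19, a PRC2 accessory protein that binds H3K36-methylated chromatin, was the PRC2 gene with the largest change under both treatments. It was at 6.58, 6.68 and 6.58 in Ndst1/2-/- cultures, 6.64, 6.50 and 6.51 with chlorate, 6.80, 6.76 and 6.63 with SU5402, and 6.02, 5.73 and 6.03 in untreated cultures. Every mutant and treated culture exceeded every untreated one. The log2 fold changes were 0.69 ± 0.08 (1.61-fold, adjusted p = 1.3e-05), 0.62 (1.54-fold, adjusted p = 0.00014) and 0.80 (1.74-fold, adjusted p = 2.6e-05). Its paralogue Mtf2 had values of 0.04, 0.06 and 0.16 in mutant, chlorate-treated and SU5402-treated cells (adjusted p = 0.73, 0.69 and 0.25).

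Rbbp7, a histone-binding subunit shared with other chromatin complexes, had 4 tested probes. In mutant cells 3 of them were lower (-0.35, -0.48 and -0.37), and the fourth, the dimmest, was at 0.02. ILMN_2691187 was also lower with chlorate (-0.33, adjusted p = 0.0083) and SU5402 (-0.30, adjusted p = 0.017). Its SU5402 call did not hold without SU5402 culture 2 (adjusted p = 0.069) or untreated culture 1 (0.065). The mutant call of ILMN_2691192 did not hold without mutant culture 3 (adjusted p = 0.059) or untreated culture 1 (0.057).

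**Figure D2:**
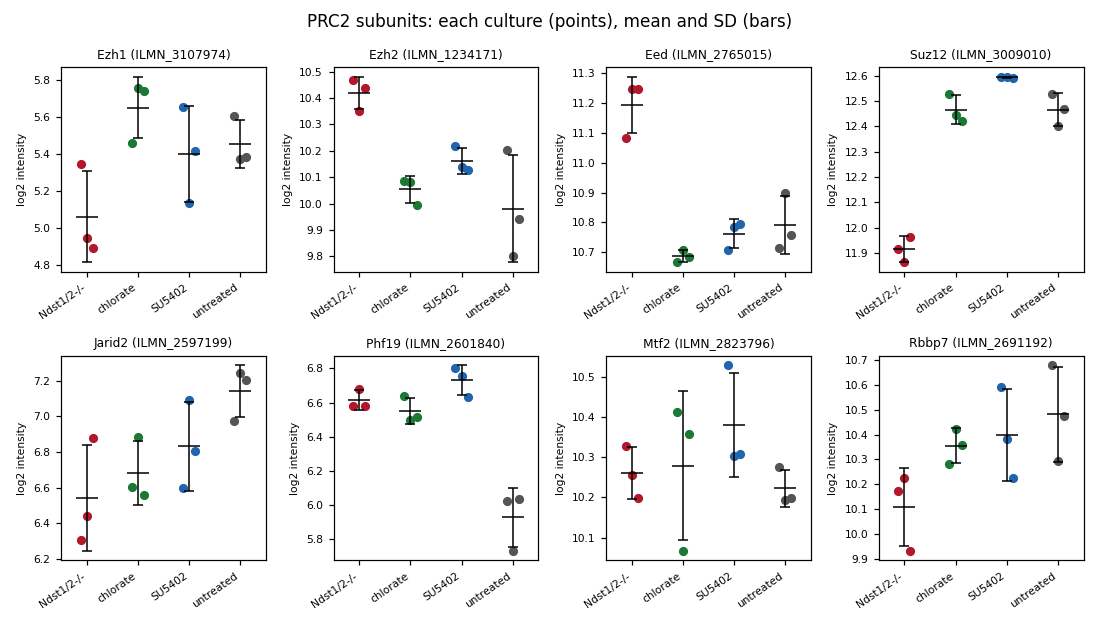
Normalized log2 intensity of the brightest probe of 8 PRC2 genes in each culture (points) by group, with the mean and SD over 3 cultures. Ezh2 and Eed sit higher and Suz12 lower in Ndst1/2-/- cultures than in the other 9 cultures, and Phf19 is lowest in untreated cultures. The vertical axes differ between panels.

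PRC1 genes also moved in both directions in the mutant cells. The catalytic subunits Ring1 and Rnf2, the PCGF genes Bmi1 and Pcgf1 and the chromodomain gene Cbx7 were higher. The polyhomeotic genes Phc1 and Phc2 and the variant PCGF gene Pcgf6 were lower. The chromodomain gene Cbx8 was also called higher, but was detected on no untreated array. In all, 6 of 14 PRC1 probes were higher and 5 lower in Ndst1/2-/- cells, where 30.4% and 32.2% of all tested probes were. With each treatment none was higher and 4 were lower, the 3 Phc1 probes and Pcgf6, where 14.2% of all probes were lower with chlorate and 11.6% with SU5402.

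Bmi1, a PCGF subunit of canonical PRC1 known for repressing the Cdkn2a locus, was at 6.83, 6.85 and 6.78 in Ndst1/2-/- cultures, 6.06, 6.04 and 5.93 with chlorate, 6.10, 5.80 and 6.13 with SU5402, and 6.10, 5.89 and 5.67 in untreated cultures. It rose 1.91-fold in mutant cells (log2 0.93 ± 0.11, adjusted p = 6.2e-06), and its values with chlorate and SU5402 overlapped the untreated ones (0.13 and 0.12). Direct tests gave 0.81 for mutant minus chlorate-treated cells (adjusted p = 2.8e-05) and 0.81 for mutant minus SU5402-treated cells (adjusted p = 2.7e-05). Cdkn2a was also higher in mutant than in untreated cells (log2 1.15, adjusted p = 2.6e-09), and a link with Bmi1 was not tested.

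Cbx7, the main chromodomain subunit of canonical PRC1 in mouse ES cells, was at 10.01, 10.002 and 10.12 in Ndst1/2-/- cultures, 9.35, 9.20 and 9.37 with chlorate, 9.40, 9.30 and 9.46 with SU5402, and 9.41, 9.46 and 9.37 in untreated cultures. The mutant cultures stood alone (0.63 ± 0.07, adjusted p = 3.3e-06). Rnf2, the Ring1b ubiquitin ligase, was at 8.22, 8.40 and 8.47 in mutant cultures, 7.98, 7.79 and 8.02 with chlorate, 7.80, 8.04 and 7.81 with SU5402, and 7.75, 7.77 and 7.88 in untreated cultures. It was higher in mutant cells (0.56 ± 0.09, adjusted p = 0.00012) and at 0.13 and 0.08 with chlorate and SU5402. Its paralogue Ring1 (0.37, adjusted p = 0.0021) and the variant PRC1 subunit Pcgf1 (0.38, adjusted p = 4.5e-05) were also higher in mutant cells.

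Cbx8 was detected on 3 of 4 mutant arrays, on all arrays of both treated groups and on none of the untreated arrays. Cbx8 thus passed the filter only through groups where it was higher, and its call, counted above, is a description only. It was called higher in mutant cells (bound of 1.22-fold on the group means, adjusted p = 0.0080). It was not called with chlorate (bound of 1.13-fold, adjusted p = 0.058) or SU5402 (bound of 1.06-fold, adjusted p = 0.16). Mutant culture 2 (4.98) and SU5402 culture 1 (5.03) lay below untreated culture 1 (5.04), so these groups overlapped. These bounds set the mean of the brighter group against the lowest detected signal on each untreated array. The chlorate value passed the threshold without mutant culture 2 (adjusted p = 0.012), mutant culture 3 (0.036) or untreated culture 1 (0.035), and its array-set adjusted p was 0.039.

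Phc1, a polyhomeotic subunit that joins PRC1 complexes into larger assemblies, was lower in all 3 comparisons on all 3 probes. By ILMN_2773464 it was at 12.32, 12.36 and 12.33 in Ndst1/2-/- cultures, 13.02, 12.92 and 13.002 with chlorate, 12.96, 13.04 and 12.96 with SU5402, and 13.29, 13.23 and 13.28 in untreated cultures. The mutant cultures were lowest, the untreated ones highest and the treated ones between, with no overlap between these 3 levels. By ILMN_3142248 the values were 10.62, 10.54 and 10.63 in mutant cultures, 11.17, 11.25 and 11.24 with chlorate, 11.07, 11.12 and 11.12 with SU5402, and 11.59, 11.56 and 11.68 in untreated cultures. By ILMN_3064382 they were 6.63, 6.35 and 6.47 in mutant cultures, 7.16, 7.13 and 7.12 with chlorate, 7.24, 7.05 and 6.94 with SU5402, and 7.53, 7.47 and 7.71 in untreated cultures. The same order held on both of these probes. The log2 fold changes of the 3 probes were -0.93, -1.01 and -1.09 in mutant cells (adjusted p from 7.6e-09 to 4.4e-07), -0.29, -0.39 and -0.43 with chlorate (adjusted p up to 0.0037), and -0.29, -0.51 and -0.49 with SU5402 (adjusted p up to 0.0021). Mutant cells were also below chlorate-treated cells (-0.64, -0.62 and -0.65) and SU5402-treated cells (-0.64, -0.50 and -0.59) by direct test, with adjusted p of 0.00013 or less.

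Pcgf6, which defines the PRC1.6 complex that represses germline genes, was lower by a like amount in each comparison, -0.21 in mutant cells (adjusted p = 0.017), -0.22 with chlorate (adjusted p = 0.027) and -0.23 with SU5402 (adjusted p = 0.027). Without untreated culture 2 all 3 calls were lost (adjusted p = 0.056, 0.085 and 0.085), and without untreated culture 1 both treatment calls were (0.076 and 0.077). The chlorate call was also lost without chlorate culture 2 (0.11) or 3 (0.058), and the SU5402 call without SU5402 culture 2 (0.080) or 3 (0.097). Phc2 was lower in mutant cells (-0.27, adjusted p = 0.0091), and had values of 0.03 with chlorate (adjusted p = 0.82) and -0.16 with SU5402 (adjusted p = 0.18).

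Pcgf2, Cbx2 and Kdm2b, which recruits variant PRC1 to CpG islands, were not called in any comparison with untreated cells. Cbx2 had a log2 fold change of -0.29 with chlorate (adjusted p = 0.051), which passed the threshold without chlorate culture 3 (0.037), untreated culture 1 (0.027), or mutant culture 1 (0.030) or 2 (0.029), and its array-set adjusted p was 0.016. In mutant cells its value of -0.20 became -0.31 without mutant culture 2 (adjusted p = 0.020) and -0.28 without untreated culture 1 (0.042), with an array-set adjusted p of 0.030. Pcgf2 likewise moved to -0.30 in mutant cells without untreated culture 1 (adjusted p = 0.016).

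**Figure D3:**
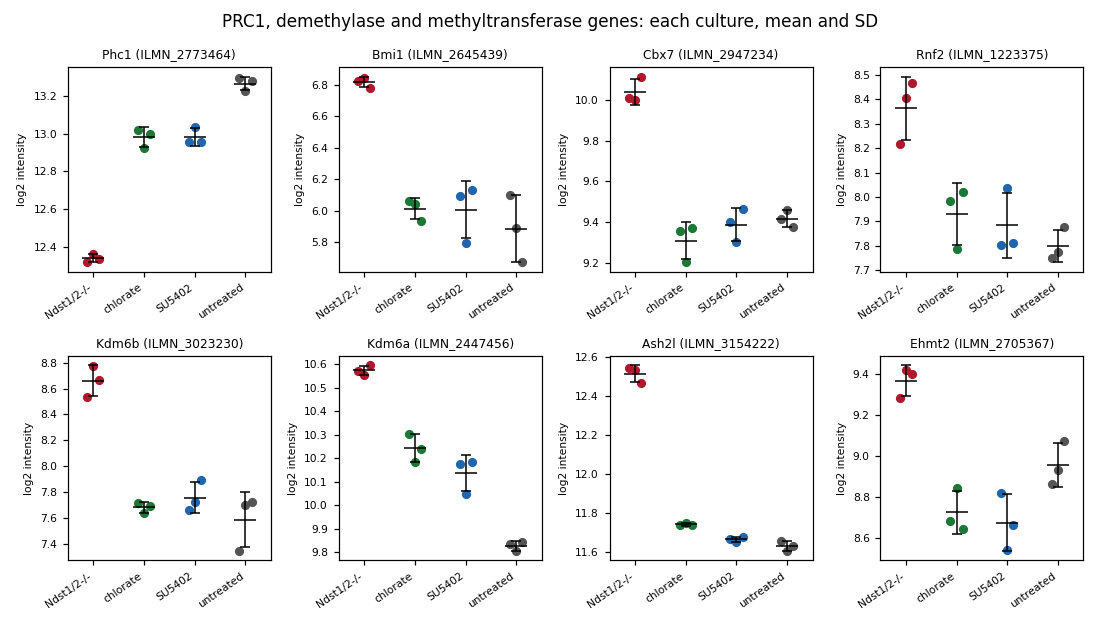
Normalized log2 intensity of the brightest probe of 8 PRC1, demethylase and methyltransferase genes in each culture (points) by group, with the mean and SD over 3 cultures. Bmi1, Cbx7, Rnf2, Kdm6b and Ash2l are higher in every Ndst1/2-/- culture than in every other culture on these probes, Phc1 and Kdm6a show 3 separate levels, and Ehmt2 is highest in mutant and lowest in treated cultures. The vertical axes differ between panels.

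Demethylase genes were higher in mutant cells. All 5 tested probes of Kdm6a, Kdm6b and Kdm5b were higher in Ndst1/2-/- cells (30.4% of all tested probes were). With chlorate 3 of the 5 were higher and 1, a Kdm6b probe, was lower (14.2% of all in each direction), and with SU5402 3 were higher and none lower (11.9% and 11.6% of all). Kdm6a (also called Utx), the X-linked H3K27 demethylase, was at 10.57, 10.55 and 10.59 by ILMN_2447456 in mutant cultures, 10.30, 10.18 and 10.24 with chlorate, 10.18, 10.05 and 10.18 with SU5402, and 9.83, 9.80 and 9.84 in untreated cultures. By ILMN_2506528 it was at 10.08, 10.04 and 10.19 in mutant cultures, 9.89, 9.69 and 9.80 with chlorate, 9.66, 9.65 and 9.52 with SU5402, and 9.35, 9.34 and 9.45 in untreated cultures. Untreated cultures were lowest and mutant cultures highest on both probes.

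Kdm6a changed by 0.75 and 0.72 in mutant cells (adjusted p = 1.5e-07 and 1.4e-06), by 0.41 on both probes with chlorate (adjusted p = 0.00015 and 0.00077), and by 0.31 and 0.23 with SU5402 (adjusted p = 0.0018 and 0.029). The SU5402 call of ILMN_2506528 did not hold without SU5402 culture 1 (adjusted p = 0.091) or 2 (0.091), or untreated culture 1 (0.079) or 2 (0.089). Mutant cells also exceeded the treated ones, by 0.33 and 0.31 over chlorate (adjusted p = 0.00026 and 0.0020) and by 0.44 and 0.49 over SU5402 (adjusted p = 2.6e-05 and 5.5e-05). The Y-linked paralogue Uty, in a list of further trithorax-related genes, had a log2 fold change of 0.01 in mutant cells (adjusted p = 0.94).

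Kdm6b (also called Jmjd3), an inducible H3K27 demethylase, had the largest increase of the 46 probes. By ILMN_3023230 it was at 8.54, 8.78 and 8.66 in Ndst1/2-/- cultures, 7.72, 7.64 and 7.70 with chlorate, 7.66, 7.72 and 7.89 with SU5402, and 7.35, 7.70 and 7.72 in untreated cultures. By ILMN_3095624 it was at 8.05, 8.32 and 8.15 in mutant cultures, 6.77, 6.66 and 6.74 with chlorate, 7.14, 7.06 and 6.89 with SU5402, and 7.15, 7.17 and 7.25 in untreated cultures. Mutant cells were 2.10-fold and 1.98-fold higher than untreated ones (log2 1.07 and 0.98, adjusted p = 1.1e-06 and 2.8e-07). The probes parted under chlorate, with 0.10 (adjusted p = 0.53) on the first and a decrease of -0.47 (adjusted p = 0.00084) on the second. Under SU5402 they were at 0.17 (adjusted p = 0.26) and -0.16 (adjusted p = 0.18).

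Kdm5b, an H3K4 demethylase, was higher in mutant cells (0.54 ± 0.06, adjusted p = 3.9e-06), with chlorate (0.36, adjusted p = 0.00050) and with SU5402 (0.29, adjusted p = 0.0032). Its 3 cultures in each of these groups lay above the untreated cultures.

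Among genes for H3K4 methylation, the shared core subunits Ash2l and Rbbp5 were higher in Ndst1/2-/- cells, and the catalytic subunit Setd1a and the core subunits Wdr5 and Dpy30 were not called. Of 7 probes 4 were higher in mutant cells, none was called with chlorate and 2 were higher with SU5402. Of all tested probes 30.4% were higher in mutant cells, 14.2% with chlorate and 11.9% with SU5402. Ash2l by ILMN_3154222 was at 12.54, 12.53 and 12.46 in mutant cultures, 11.74, 11.75 and 11.74 with chlorate, 11.67, 11.65 and 11.68 with SU5402, and 11.66, 11.61 and 11.63 in untreated cultures. By ILMN_2485900 it was at 7.01, 6.75 and 6.84 in mutant cultures, 6.07, 6.21 and 6.22 with chlorate, 6.38, 6.07 and 6.33 with SU5402, and 6.04, 5.89 and 5.94 in untreated cultures. Both probes set the mutant cultures apart from all wild-type cultures.

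Ash2l rose by 0.88 ± 0.05 and 0.91 ± 0.09 on the log2 scale in mutant cells (adjusted p = 8.8e-09 and 2.1e-06). With SU5402 the probes gave 0.03 (adjusted p = 0.69) and 0.30 (adjusted p = 0.031). The second of these calls did not hold without SU5402 culture 1 (adjusted p = 0.11) or 3 (0.10), or untreated culture 2 (0.098) or 3 (0.079). Rbbp5 was higher in mutant cells on both tested probes (0.43 and 0.40, adjusted p = 0.0083 and 0.00017). It was called with SU5402 on ILMN_2790735 (0.22, adjusted p = 0.033), which did not hold without SU5402 culture 1 (0.064) or 2 (0.13), or untreated culture 2 (0.11) or 3 (0.077). Setd1a was at 0.11, 0.00 and -0.03 in mutant, chlorate-treated and SU5402-treated cells, Wdr5 at 0.18, 0.08 and 0.17, and Dpy30 at -0.01, -0.14 and -0.18. Wdr5 passed the threshold in mutant cells without untreated culture 2 (0.25, adjusted p = 0.035), and Dpy30 with SU5402 without mutant culture 2 (adjusted p = 0.047) or chlorate culture 2 (0.049), and by its array-set adjusted p of 0.049.

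H3K9 methylation genes included a pair whose members moved in opposite directions in mutant cells on 2 of 3 tested probes each. Ehmt1 (GLP) and Ehmt2 (G9a) act as a heterodimer. In Ndst1/2-/- cells Ehmt1 was lower on 2 of its 3 tested probes (-0.39 and -0.30, adjusted p = 0.0051 and 0.00085), while Ehmt2 was higher on 2 of its 3 (0.41 and 0.34, adjusted p = 0.00095 and 0.0015). The third probe of each was detected on at most 3 arrays of a group and was not called. In mutant cells the third Ehmt1 probe was at 0.23, against the direction of the other 2, and the third Ehmt2 probe at 0.06.

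Ehmt2 thus had a positive log2 fold change in mutant cells and negative ones in treated cells. Its probes ILMN_2705367 and ILMN_3147724 were at -0.23 (adjusted p = 0.062) and -0.34 (adjusted p = 0.0046) with chlorate, and at -0.28 (adjusted p = 0.031) and -0.33 (adjusted p = 0.0064) with SU5402. The SU5402 call of ILMN_2705367 did not hold without SU5402 culture 2 (adjusted p = 0.12) or 3 (0.078), or untreated culture 2 (0.061) or 3 (0.12). Its chlorate value passed the threshold without chlorate culture 2 (0.037) or SU5402 culture 1 (0.046), and its array-set adjusted p was 0.016. By direct test mutant cells exceeded chlorate-treated cells by 0.64 and 0.67 (adjusted p = 2.9e-05 and 5.7e-06) and SU5402-treated cells by 0.69 and 0.67 (adjusted p = 1.6e-05 and 6.2e-06).

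Setdb1, the H3K9 methyltransferase of the KAP1 pathway, was higher in mutant cells (0.41 ± 0.07, adjusted p = 0.00018) and at 0.09 and -0.01 with chlorate and SU5402. Its partner Trim28 (KAP1) was at 0.25 in mutant cells (adjusted p = 0.0012), 0.24 with chlorate (adjusted p = 0.0047) and 0.16 with SU5402 (adjusted p = 0.052). Without SU5402 culture 3 the last value was 0.19 (adjusted p = 0.049), and its array-set adjusted p was 0.036. Under median scaling of the arrays the chlorate value of Trim28 was 0.13 (adjusted p = 0.11).

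Direct comparisons between groups showed where the mutant state differed from 24 h of inhibitor. In Ndst1/2-/- against chlorate-treated cells 19 of 46 probes were higher (29% of all tested probes were) and 7 lower (29.3% of all). Against SU5402-treated cells 19 were higher (28.4% of all) and 6 lower (29.5% of all). The median log2 difference was 0.12 and 0.15 over these probes and 0.01 over all probes in both. By gene, Cbx7 (0.73 and 0.65), Kdm6b ILMN_3095624 (1.45 and 1.14), Ash2l ILMN_3154222 (0.77 and 0.85) and Eed (0.51 and 0.43) were higher in mutant cells, and Suz12 (-0.55 and -0.68) was lower, in both comparisons. Phf19 did not pass the threshold in either (0.06, adjusted p = 0.54, and -0.12, adjusted p = 0.26), nor did Pcgf6 (0.01 and 0.02) or Jarid2 (-0.14 and -0.29). Jarid2 passed it against SU5402 without mutant culture 3 (-0.46, adjusted p = 0.018). The fit with array set and culture as blocks called 29 probes in each of these comparisons, against 26 and 25 in the main fit.

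Between SU5402 and chlorate, limma called 0 of 46 probes, against 1.04% of all tested probes higher and 1.5% lower. At an unadjusted p under 0.05, 3 probes were higher and 3 lower with SU5402. The lowest adjusted p was 0.065, for Kdm6b ILMN_3095624 (0.31 higher with SU5402), and it was 0.049 without SU5402 culture 3. This does not show that the treatments act alike, since differences on single probes had SEs of 0.049 to 0.155.

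**Figure D4:**
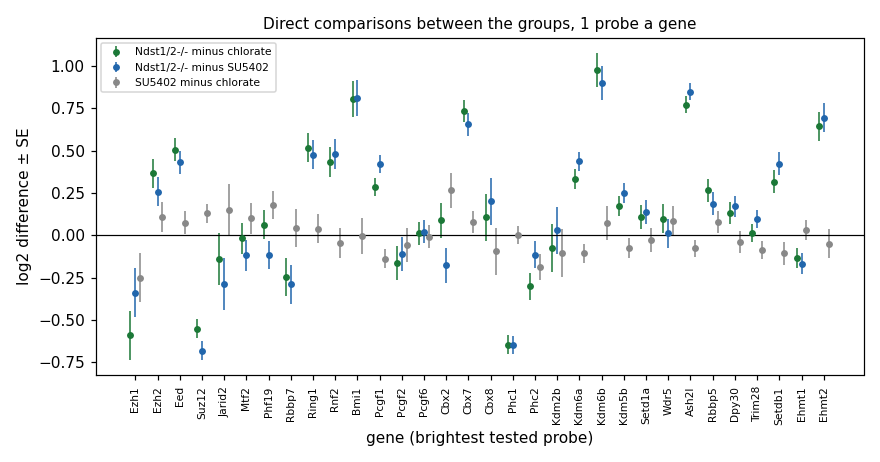
Log2 difference between groups of the brightest tested probe of each of 32 genes, with its SE, for Ndst1/2-/- minus chlorate, Ndst1/2-/- minus SU5402 and SU5402 minus chlorate. The first 2 sets of points spread from -0.68 (Suz12) to 0.97 (Kdm6b) on these probes, and the third lies within 0.27 of 0.

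**Figure D5:**
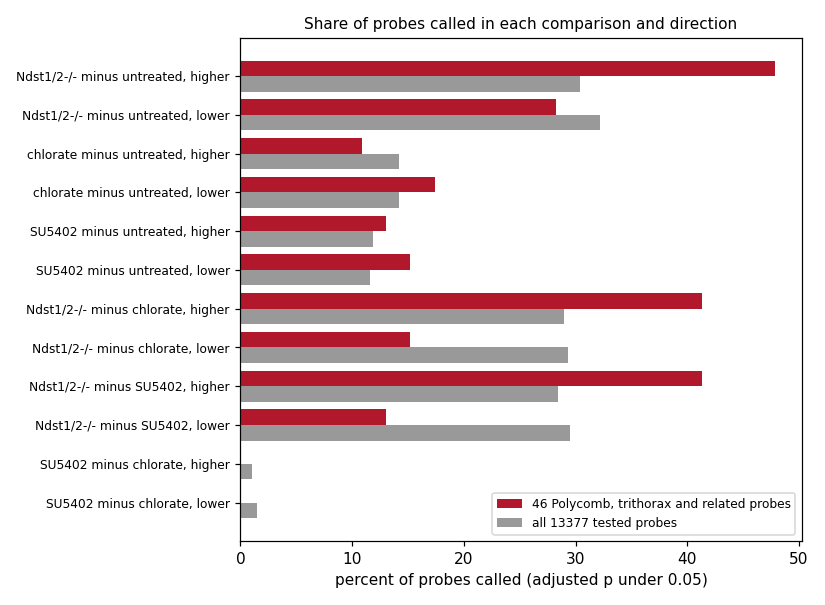
Percent of the 46 probes and of all 13377 tested probes called higher or lower in each comparison. The bars differ most for probes higher in Ndst1/2-/- cells and for probes lower in Ndst1/2-/- than in treated cells, and are near one another for both treatments against untreated cells.

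Further genes of the same pathways were counted in lists made with earlier results known, by the brightest probe of each gene. For these and all later lists, the shares given are over all tested probes and not over genes, which is an unlike base. Of 21 other Polycomb genes tested, 4 were higher and 10 lower in Ndst1/2-/- cells (median -0.26), 1 higher and 4 lower with chlorate (median 0.01), and 5 higher and none lower with SU5402 (median -0.00). Over all tested probes 30.4% were higher and 32.2% lower in mutant cells, 14.2% each way with chlorate, and 11.9% and 11.6% with SU5402. The largest decreases in mutant cells were Ezhip, an inhibitor of PRC2 (-1.99, adjusted p = 9.6e-10), Pcgf5 of variant PRC1 (-1.34, adjusted p = 2.8e-09), the PRC2 cofactor Epop (-1.14, adjusted p = 5.1e-09) and E2f6 of PRC1.6 (-0.83, adjusted p = 4.4e-07). Yaf2, a relative of Rybp, was detected on no mutant array and was at least 2.19-fold lower (adjusted p = 6.0e-09). Pcgf5 was higher with both chlorate (0.26, adjusted p = 0.012) and SU5402 (0.26, adjusted p = 0.013). The 4 genes lower with chlorate were E2f6 (-0.41, adjusted p = 0.00090), Yaf2 (-0.36, adjusted p = 0.0037), Sfmbt1 (-0.32, adjusted p = 0.0013) and L3mbtl2 (-0.23, adjusted p = 0.026).

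Of 12 other trithorax-related genes and H3K4 or H3K27 enzymes tested, 7 were higher and 2 lower in mutant cells (median 0.25), 3 higher and none lower with chlorate (median 0.10), and 1 higher and 1 lower with SU5402 (median 0.06). Shares over all tested probes were 30.4% and 32.2% in mutant cells, 14.2% each way with chlorate, and 11.9% and 11.6% with SU5402. Kmt2b, an H3K4 methyltransferase, was at 0.59 in mutant cells (adjusted p = 2.1e-05) and 0.27 with chlorate (adjusted p = 0.020). The Y-linked demethylase gene Kdm5d was detected on no mutant array and on all 4 arrays of every wild-type group, and was at least 1.79-fold lower in mutant cells (adjusted p = 2.2e-10). The Y-linked Uty was detected on all 4 arrays of every group, mutant included, and whether the mutant cells kept a whole Y chromosome was not tested. Kdm5c, the X-linked relative of Kdm5d, was higher in mutant cells (0.40, adjusted p = 0.015). With SU5402 Kdm5c was lower (-0.38, adjusted p = 0.048) and was detected on 1 of 4 arrays.

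Of 17 other genes tested that write, read or erase H3K9 methylation or help those that do, 7 were higher and 6 lower in Ndst1/2-/- cells (median 0.03), 3 higher and 2 lower with chlorate (median -0.02), and 1 higher and 3 lower with SU5402 (median -0.03). Among all tested probes the shares were 30.4% and 32.2% in mutant cells, 14.2% each way with chlorate, and 11.9% and 11.6% with SU5402. The list holds 5 demethylases or members of that family, which remove the mark, and in mutant cells 3 of these were higher (Kdm3a, Kdm4a and Kdm4b) and 1 lower. Of the other 12 genes 4 were higher and 5 lower there. In mutant cells Atf7ip, a Setdb1 cofactor (-1.03, adjusted p = 2.0e-08), and the heterochromatin protein gene Cbx1 (-0.92, adjusted p = 4.3e-07) were lower. The demethylase Kdm4b (0.91, adjusted p = 3.9e-08) and Wiz, a partner of the Ehmt1 and Ehmt2 dimer (0.83, adjusted p = 4.7e-07), were higher. The demethylase-family gene Jmjd1c was lower in mutant cells (-0.58), with chlorate (-0.73) and with SU5402 (-0.37), with adjusted p of 0.010 or less.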

How the data were processed

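RNA of 16 arrays was measured on Illumina bead arrays. The authors deposited, per the file headers, a non-normalized mean intensity and a detection p-value of every probe. The submitters' processing notes name BeadStudio, without a version. A deposited table of intensity processed by the authors in a way not stated (53.11% of values at a floor of 20) served as an alternative only.

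Background correction by detection p-values with an offset of 16, quantile normalization and log2 used neqc (limma 3.58.1, R 4.3.3). The offset understates fold changes of dim probes. Both arrays of culture 3 were averaged. Probes with a detection p-value under 0.01 in at least 3 of 12 cultures were tested. A single limma model of the 4 groups (8 residual and 4.37 prior degrees of freedom) gave all comparisons. P-values were adjusted (Benjamini-Hochberg) over 13377 probes and called under 0.05. The fit was also run on simulated data with independent noise, few changed probes and no array sets. The data here differ in these points, so that run does not test how the fit deals with them. Symbols came from the platform annotation and promoters from RefSeq.

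The genes and lists were chosen with earlier results of these data known. Values in every culture are given for the 14 probes with the largest change against untreated cells and for Ezh1, Ezh2, Eed, Suz12 and Jarid2. Up to 6 called genes per comparison were named from other chromatin lists, and up to 4 from the rest. Uty and Cdkn2a were named after their values were seen. Alternatives were other scaling, background and filter settings, blocks, array subsets and leaving out each culture.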

Additional observations from a re-analysis of the deposited data

How the results depend on the processing

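No value of the 46 probes changed direction while called under any of 23 alternatives. Calls held under all 23 were 27 of 35 for Ndst1/2-/- minus untreated cells, 5 of 13 for chlorate, 3 of 13 for SU5402 (Phf19 and Phc1 on ILMN_3064382 and ILMN_3142248), 22 of 26 for Ndst1/2-/- minus chlorate and 19 of 25 for Ndst1/2-/- minus SU5402. Mean intensity parted the arrays into a brighter set (412 to 454.1) and a dimmer set (369.3 to 399.8), each with 2 arrays of every group. The brighter set alone called 5 probes for SU5402 minus untreated cells, and the dimmer set alone called 7 for SU5402 and 7 for chlorate, with fewer arrays in each fit. Leaving out 1 culture gave 8 to 14 for SU5402 minus untreated cells, 0 to 1 for SU5402 minus chlorate, 11 to 15 for chlorate and 33 to 35 for Ndst1/2-/- cells. The array set as a block over 16 arrays gave 37, 18 and 17 calls for Ndst1/2-/-, chlorate and SU5402 against untreated cells, with both arrays of culture 3 entered as separate samples. With culture as a random block as well, an alternative chosen after seeing the data, it gave 36, 16 and 16. Fitting the replicate block gave 35, 15 and 14. Deviations of same-numbered cultures correlated by 0.0749 to 0.1902 for cultures 1, 0.0288 to 0.0785 for cultures 2 and -0.0094 to 0.14 for cultures 3. Number and array set partly coincide, so the replicate block cannot be told apart from the array set, and the pairing rests on no label. Weak signal limits Cbx8, Ezh1, Kdm2b and the dim probes of Ehmt1 and Ehmt2.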

Other observations

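Genes that chromatin silencing is known to control moved in both directions. Of 45 developmental genes known as Polycomb targets in ES cells with a probe, 19 were tested. In Ndst1/2-/- cells 6 were higher and 9 lower (30.4% and 32.2% of all tested probes were). With chlorate 8 were higher and 4 lower (14.2% of all in each direction). With SU5402 5 were higher and 5 lower (11.9% and 11.6% of all). Of the genes called higher, 3 with chlorate and 2 with SU5402 were detected on no untreated array. In the mutant comparison 3 called genes were detected on no array of the group where they were lower. Another, called lower in mutant cells, was detected on no mutant and no untreated array. Those genes passed the filter only through groups where they were high, so their calls are descriptions only. The neural gene Olig1 was at a log2 fold change of 3.55 in mutant cells (adjusted p = 1.1e-10), and the growth regulator Cdkn1c at -2.39 (adjusted p = 1.2e-11). The blood and trophoblast regulator Gata2 was higher with chlorate (2.88, adjusted p = 1.7e-10) and SU5402 (2.60, adjusted p = 1.2e-09). The growth factor gene Bmp4 was lower in mutant cells (-1.51), with chlorate (-1.63) and with SU5402 (-1.59). The median log2 fold changes of the tested genes were -0.04, 0.08 and 0.14 (0.05 for chlorate with genes at their bound), and over all probes 0.00, -0.01 and -0.01.

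Of 13 tested germline and 2-cell genes known to be silenced by PRC1.6, Ehmt2 or Setdb1, 1 was higher and 9 lower in Ndst1/2-/- cells (median -0.70), 3 higher and 7 lower with chlorate (median -0.32), and 1 higher and 6 lower with SU5402 (median -0.21). Over all tested probes the shares were 30.4% and 32.2% in mutant cells, 14.2% each way with chlorate, and 11.9% and 11.6% with SU5402. In mutant cells 4 of the 9 lower genes were detected on no array and passed the filter through wild-type groups. Magea2 and Magea5 were detected on no mutant array and were at least 3.81-fold and 2.83-fold lower there (adjusted p = 1.0e-09 and 2.0e-10). Taf7l, a germ cell transcription factor, was lower in mutant cells (-1.75), with chlorate (-0.85) and with SU5402 (-0.43). Stra8, a meiotic entry gene, was lower in mutant cells (-1.20, adjusted p = 8.5e-06) and higher with chlorate (0.83, adjusted p = 0.00081) and SU5402 (0.54, adjusted p = 0.014).

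Of 16 tested genes of nucleosome remodelling complexes, 10 were higher and 1 lower in Ndst1/2-/- cells (median 0.29), 3 higher and 1 lower with chlorate, and none higher and 2 lower with SU5402. Shares over all tested probes were 30.4% and 32.2% in mutant cells, 14.2% each way with chlorate, and 11.9% and 11.6% with SU5402. The histone deacetylase genes Hdac1 (1.27, adjusted p = 1.6e-09) and Hdac2 (0.66, adjusted p = 5.5e-06) were the largest increases in mutant cells. Smarcd1, a BAF subunit, was lower with chlorate (-0.48, adjusted p = 0.0011) and SU5402 (-0.39, adjusted p = 0.0055).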
